A study of Mus musculus with 43 samples.

Results

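Glial cell line-derived neurotrophic factor (GDNF), the neurotrophins BDNF and NT-3, and the receptors that bind them were examined in neurons that project from the lateral shell of the nucleus accumbens to the ventral tegmental area (NAcLat→VTA cells). The set holds 9 of the 35825 genes in the tables: the ligand genes *Gdnf*, *Bdnf* and *Ntf3*, the co-receptors *Gfra1* and *Gfra2*, the receptor kinases *Ret*, *Ntrk2* and *Ntrk3*, and *Ngfr*. The genes were chosen by name with earlier results of these cells known, and *Gdnf* was selected on its counts in the 2 diets, so every difference between diets below is a description with no test. The data are 43 libraries of 1 cell each. The 23 REG cells came from mice on standard chow, and the 20 HFD cells came from mice with both standard chow and chow of 60% fat for at least 4 weeks. The methods give C57BL/6 J mice, aged 6 to 8 weeks. Fluorescent beads injected into the VTA marked the projection cells in all mice, and the cytosol of each recorded cell was drawn into the patch pipette, so a cell contributes only the RNA that the pipette took. The study counts 10 REG and 11 HFD mice, but no source ties a cell to its mouse. Each diet therefore counts as 1 sample, and cells are not replicates. By the labels, batch 1 held 13 REG and 5 HFD cells, and batch 2 held 10 REG and 15 HFD cells.

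GDNF binds the co-receptor GFRα1, and the pair signals through the kinase Ret. Neurturin prefers GFRα2, which also works through Ret. BDNF binds the kinase TrkB, the product of *Ntrk2*, and NT-3 binds TrkC, the product of *Ntrk3*, whereas p75, the product of *Ngfr*, binds all neurotrophins and their uncleaved precursors. In the striatum, GDNF supports the dopamine axons that arrive from the midbrain and is known mainly from parvalbumin interneurons, and much of the BDNF protein is delivered by axons from the cortex.

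The labelled cell type was checked against its markers. *Drd1*, the D1 dopamine receptor, had counts in all 43 cells, with medians by diet of 201 (REG) and 180 (HFD) counts per 1000000 counts of the cell (CPM). It was as low as 0.721 CPM, in REG cell 16. The median sums of 6 D1 neuron markers were 2093 (REG) and 1961 (HFD) CPM, and those of 6 D2 neuron markers 17.9 and 13.1 CPM. The D2 sum reached 1451 CPM in HFD cell 16, and in HFD cell 13 it exceeded the D1 sum, at 151 against 105 CPM. Transcripts of other cells were also present, with median summed levels of 7 microglial markers of 61.9 CPM (REG) and 69.5 CPM (HFD). The median summed level of 7 astrocyte markers was 269 and 261 CPM, and that of 6 oligodendrocyte markers was 98.5 and 187 CPM. That of 5 endothelial markers was 259 and 318 CPM, with 4078 CPM in HFD cell 15. Totals ran from 176961 to 16919600 estimated counts per cell, with medians of 1427700 in REG and 1416980 in HFD cells, and *Lars2* with *Gm19220* took from 2.74% to 85.8% of the counts of a cell. Intervals below are exact 95% intervals. Those of shares treat cells as independent draws, and those of summed counts treat reads so. Neither holds, since cells share mice and amplified reads are not independent molecules. The intervals therefore cover neither the spread between mice nor that of amplification.

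The tables give 1 value per gene, which sums messages for receptors that differ in what they can do. *Ntrk2* (GRCm38 chromosome 13, positions 58806569 to 59133970, plus strand) and *Ntrk3* (chromosome 7, 78175959 to 78738012, minus strand) each encode a full-length receptor with a kinase and a truncated receptor without it. The stretches where these part are shown, because the gene-level counts of the 2 most abundant members below cannot separate them. Each line runs 5′ to 3′ on the sense strand of the GENCODE M21 transcripts, with 24 shared coding bases in lower case and the first 38 bases that the other form lacks in capitals. For *Ntrk2*, the shared bases lie at chr13:58878239-58878262, the capitals of the full-length form at chr13:58985802-58985839 and those of the truncated form at chr13:58932023-58932060, where they run to its stop codon. For *Ntrk3*, the shared bases lie at chr7:78356027-78356050, the capitals of the full-length form at chr7:78260377-78260414 and those of the truncated form at chr7:78304389-78304426.
Ntrk2-201, full length: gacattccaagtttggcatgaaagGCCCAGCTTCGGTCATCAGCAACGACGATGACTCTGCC
Ntrk2-202, truncated: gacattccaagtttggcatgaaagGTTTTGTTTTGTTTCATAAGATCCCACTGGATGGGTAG
Ntrk3-201, full length: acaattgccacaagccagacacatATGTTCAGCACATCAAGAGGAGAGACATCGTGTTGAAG
Ntrk3-202, truncated: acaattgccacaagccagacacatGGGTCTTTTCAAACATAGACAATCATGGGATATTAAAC
Ntrk2-201 encodes 821 residues and Ntrk2-202 encodes 476. Ntrk3-201 encodes 825 residues and Ntrk3-202 encodes 612.

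Among the 9 genes, the Trk receptor genes were highest, and *Gdnf* and *Ntf3* were counted in few cells. *Bdnf*, *Ntrk2* and *Ntrk3* had counts in all 43 cells, as did 10.1% of the 10802 genes that passed the filter on low values (over 15 CPM in 5 or more cells, with a mean over 4 CPM). *Gfra1* and *Ngfr* had counts in 25 cells each, which is 58.1% (42.1% to 73.0%). *Gfra2* had counts in 17 cells, *Ret* in 9, *Gdnf* in 7 and *Ntf3* in 3. *Gdnf*, *Gfra1*, *Bdnf*, *Ntrk2* and *Ntrk3* passed the filter, and the other 4 did not. By a stricter limit of 15 CPM, *Ntrk3* was present in 40 cells, *Ntrk2* in 38, *Gfra1* in 11, *Bdnf* in 9, *Gdnf* in 6, *Gfra2* and *Ret* in 1 each, and *Ntf3* and *Ngfr* in none.

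On TPM, transcript levels scaled for length to a sum of 1000000 in each cell, *Ntrk3* had the highest mean level over the 43 cells, at 106, followed by *Ntrk2* at 53.3. *Gfra1* followed at 12.8, *Bdnf* at 4.67, *Gdnf* at 3.35 and *Gfra2* at 2.78, and *Ngfr*, *Ret* and *Ntf3* lay at 0.700, 0.533 and 0.317. Medians ordered the genes differently: *Ntrk3* 68.6, *Ntrk2* 35.3, *Bdnf* 2.45, *Gfra1* 0.616 and *Ngfr* 0.266 TPM, with the other 4 at 0. The mean of *Gfra1* rested on a minority of cells, since the 3 highest held 51.5% of its summed CPM. Neighbours in the order overlapped across cells. The middle range of *Ntrk3*, from 35.2 to 153 TPM at the quartiles, crossed that of *Ntrk2*, from 13.1 to 79.1 TPM, although *Ntrk3* was the higher of the pair in 29 of the 43 cells, 16 of 23 REG and 13 of 20 HFD.

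**Figure D1:**
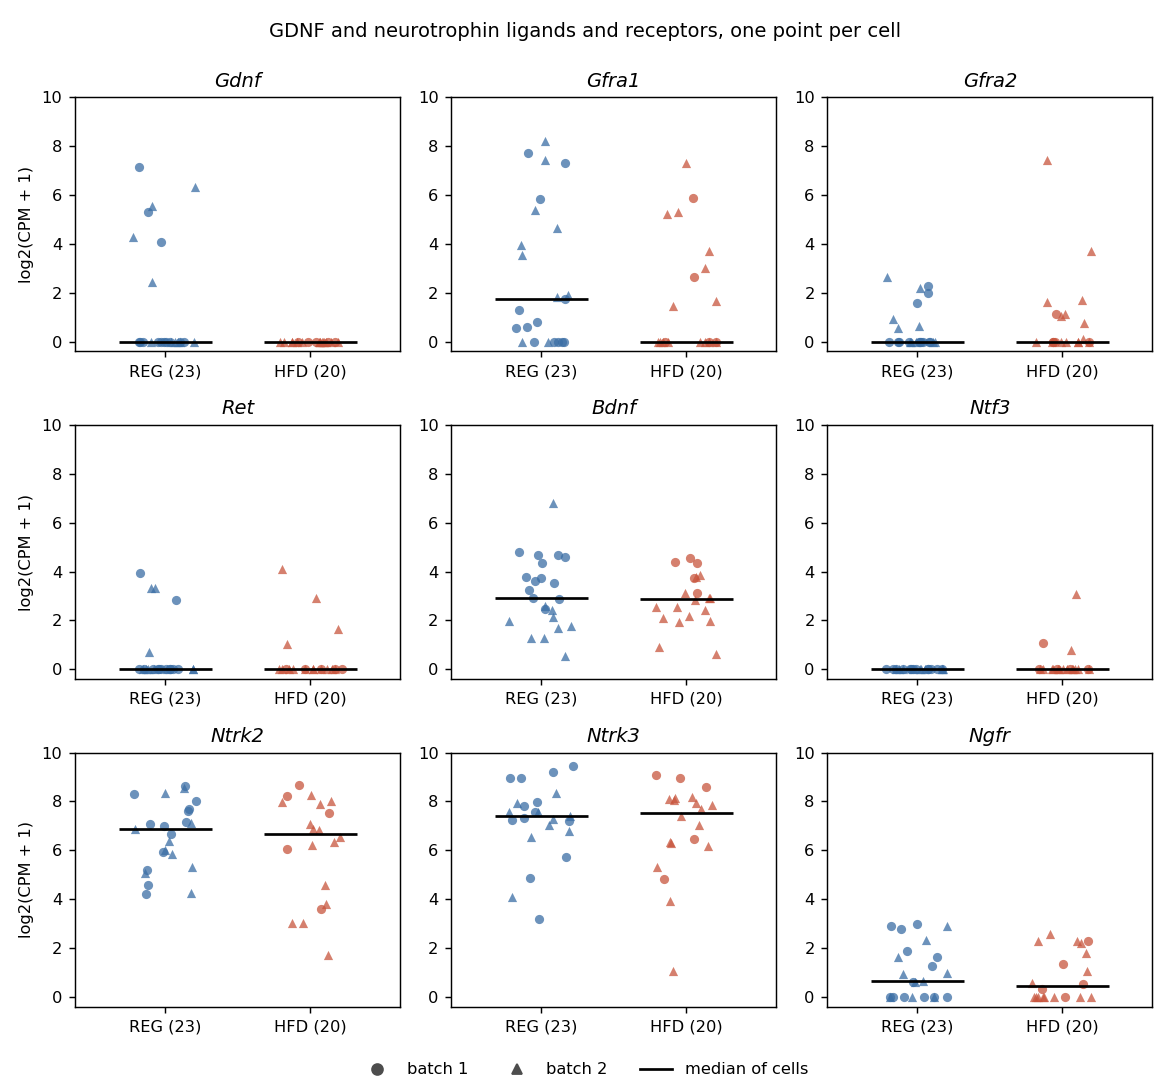
Level of each gene as log2(CPM + 1) in each cell (y axis) by diet (x axis), with circles for batch 1, triangles for batch 2 and a bar at the median over cells. *Ntrk2* and *Ntrk3* lie high in both diets, *Gdnf* is above 0 in 7 REG cells and no HFD cell, and *Bdnf* is present in every cell with triangles mostly below circles.

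*Gdnf* (chromosome 15, 7810846 to 7837575, plus strand, with no other gene overlapping it) was present in REG cells and had no count in any HFD cell. The 7 REG cells that held it had 140, 79.8, 45.7, 38.1, 18.6, 16.03 and 4.39 CPM, and the other 16 REG cells had no count. All 20 HFD cells were at 0. The groups overlap at 0, since most REG cells also lacked *Gdnf*. Its share was 30.4% in REG cells (13.2% to 52.9%), and 0 of 20 HFD cells held it, which allows a share of up to 15% by a limit of 3 cells and 16.8% by the exact interval. The REG counts summed to 703 (652 to 757), and the highest cell held 40.8% of the summed CPM and the 3 highest 77.5%.

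With the HFD group set to 3 counts in all, *Gdnf* had a log2 ratio of -7.45, or 174-fold lower in HFD cells at that setting. The exact interval for 0 counts runs to 3.69 counts, so this bound is not a strict limit. The bound was -5.80 within batch 1, where 3 of 13 REG cells held *Gdnf*, and -6.52 within batch 2, where 4 of 10 did. It stayed between -7.98 and -6.69 when any 1 cell was left out, but depended on depth and scale: it was -3.91 with each cell thinned to 150000 counts, and the difference of mean log2(CPM + 1) was -1.53. The bound counts reads, whereas the unit that differs is the cell: 7 of 23 against 0 of 20, from mice that cannot be told apart. Level times total gives the counts a cell of each depth would hold. At 16.03 CPM, the second lowest level among the 7 cells, this product is at least 3 counts in 19 of the 20 HFD cells, and at 4.39 CPM, the lowest, in 15. It leaves out losses before sequencing, which the tables do not show. The lowest REG cell with *Gdnf* had 15 counts. All 7 cells with *Gdnf* had totals of at least 1364340 counts, and no REG cell with a lower total held it. The HFD cells above that total were also at 0.

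Among the filtered genes, *Gdnf* was the only one with counts in 7 or more REG cells and in no HFD cell (0.00926%). No gene had the reverse pattern, counts in 7 or more HFD cells and in no REG cell (0%). The limit of 7 was taken from *Gdnf* itself, so this places it among genes and tests nothing.

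The 7 cells with *Gdnf* carried the markers of the labelled cell type. Their summed level of 7 medium spiny neuron markers ran from 2005 to 5704 CPM, inside the range of all REG cells of 1585 to 5704 CPM, and their *Drd1* level from 44.97 to 538 CPM. Since *Gdnf* is known from parvalbumin interneurons, the markers of those cells were read beside it. *Pvalb* had counts in 6 of the 7 cells, between 0.534 and 30.9 CPM, and was at 0 in the cell with the highest *Gdnf*. Over all cells *Pvalb* had counts in 14 of 23 REG cells, up to 39.8 CPM, and in 10 of 20 HFD cells, up to 67.6 CPM. The summed level of 6 parvalbumin interneuron markers was 147, 114, 78.8, 78.1, 49.0, 38.4 and 36.0 CPM in the 7 cells. It ran from 2.16 to 178 CPM over all REG cells and from 0 to 178 CPM over HFD cells, with medians of 43.6 and 36.0 CPM by diet. All 6 markers had counts in REG cells and 5 in HFD cells, where *Pthlh* was at 0. The part of these transcripts in the *Gdnf* counts was not tested.

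*Gfra1*, the co-receptor that binds GDNF, was the other of the 5 members past the filter with a ratio between diets over 2-fold. It had counts in 16 of 23 REG cells (69.6%, 47.1% to 86.8%) and in 9 of 20 HFD cells (45%, 23.1% to 68.5%). The REG cells ran from 0 through a median of 2.37 to 295 CPM, and the HFD cells from 0 through a median of 0 to 159 CPM. The ranges overlapped almost wholly, and in both diets a few cells stood far above the rest: 7 REG and 4 HFD cells exceeded 15 CPM. The log2 ratio of mean CPM, HFD over REG, was -1.43 (a mean 2.70-fold lower), with -1.40 in batch 1 and -1.71 in batch 2. It was -2.35 without HFD cell 17, the highest HFD cell, and -0.99 without REG cell 14, the highest REG cell at 295 CPM and the deepest library. It was also short of 2-fold on TPM, at -0.92, with TMM-scaled totals, at -0.68, and with DESeq2 size factors, at -0.97.

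Of the 5 members past the filter, *Gdnf* and *Gfra1* had a log2 ratio below -1, against 14.3% of the filtered genes, and 0 had a ratio above 1, against 9.04%. *Gfra1* also kept its sign within each batch and with any 1 cell left out, and 11.6% of the filtered genes lay below -1 and did so. For *Gdnf* the sign could not turn, since all HFD cells were at 0. *Gdnf* was also selected on its counts by diet and passed the filter through REG cells alone. Its place below -1 was therefore fixed beforehand, and it adds nothing to the comparison with 14.3%. The median ratio of all filtered genes was -0.13.

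**Figure D2:**
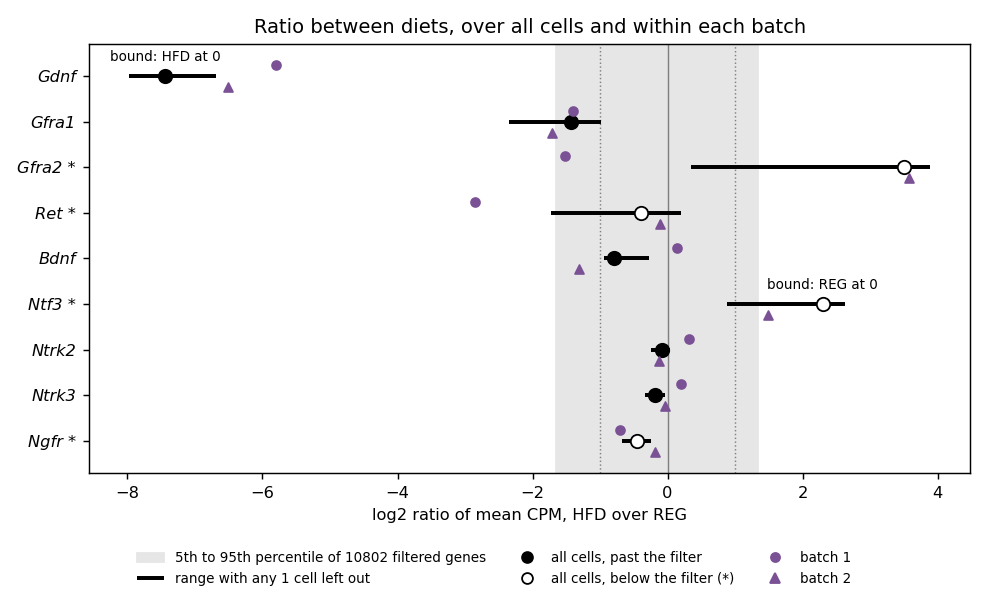
Log2 ratio of mean CPM, HFD over REG (x axis), for each gene (y axis), with the value over all cells, the values within each batch and a bar for the range when any 1 cell is left out. The grey band spans -1.65 to 1.35, the 5th to 95th percentile of the 10802 filtered genes, dotted lines mark 2-fold, and *Gdnf* lies outside the band as a bound of -7.45 while *Ntrk2* and *Ntrk3* lie near 0.

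The parts of the GDNF receptor rarely met in 1 cell at more than trace levels. *Gfra1* had counts in all 7 cells with *Gdnf*, at 170, 10.8, 2.81, 2.51, 0.733, 0.534 and 0.461 CPM, and only 1 of the 7 exceeded 15 CPM for both genes. *Ret*, the kinase, had counts in 3 of the 7, at 14.3, 9.05 and 6.14 CPM. Ligand, co-receptor and kinase together were thus counted in 3 REG cells, REG cells 5, 13 and 20, with 1, 2 and 5 counts of *Gfra1*. At the limit of 15 CPM they met in no cell. No HFD cell could hold all 3, since *Gdnf* was at 0 in every one, so this is no further difference between diets.

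*Ret* was low throughout. It had counts in 5 of 23 REG cells, from 0.630 to 14.3 CPM, and in 4 of 20 HFD cells, from 1.08 to 16.2 CPM. All other cells were at 0, and the groups overlapped. Its log2 ratio was -0.39, and this rested on single cells: it ran from -1.72 without HFD cell 16 to 0.21 without REG cell 5. *Ret* and *Gfra1* had counts together in 4 REG and 3 HFD cells.

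*Gfra2*, the co-receptor that prefers neurturin, had counts in 8 REG cells, up to 5.21 CPM, and in 9 HFD cells. HFD cell 17 held 173 CPM, the next HFD cell 11.99 CPM, and this 1 cell supplied 89.4% of the summed HFD level. The log2 ratio of 3.51 became 0.35 without that cell, and it was -1.52 in batch 1, so no direction is read from it. The same cell had the highest *Gfra1* of the HFD cells, 159 CPM, and the lowest *Ntrk2* of all cells, 2.25 CPM. It also held 830 CPM of the 6 oligodendrocyte markers and 267 CPM of the 7 microglial markers, against medians over all cells of 151 and 66.3 CPM, while its summed D1 neuron markers were 1657 CPM. The part of those transcripts in its *Gfra1* and *Gfra2* levels was not tested. The 2 co-receptors had counts together in 12 cells, and *Gfra1* was the higher in 22 cells and *Gfra2* in 8 on TPM.

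**Figure D3:**
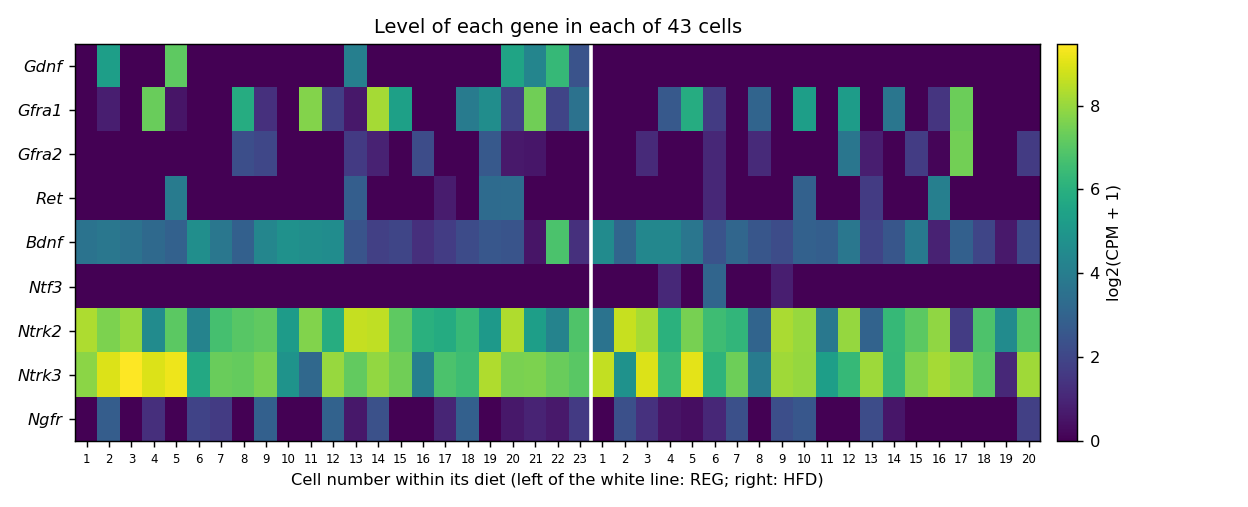
Level of the 9 genes (rows) as log2(CPM + 1), by colour, in each of the 43 cells (columns), with REG cells left of the white line and HFD cells right of it. *Gdnf* shows in REG cells 2, 5, 13, 20, 21, 22 and 23, and HFD cell 17 stands out by its *Gfra1* and *Gfra2* levels of 159 and 173 CPM.

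*Bdnf* (chromosome 2, 109674700 to 109727007, plus strand) was counted in every cell, but at low depth. REG cells ran from 0.465 through a median of 6.62 to 110 CPM, and HFD cells from 0.549 through a median of 6.32 to 22.4 CPM. The medians of the diets lay close together, and 1 REG cell stood above all others. The median cell held 10 counts, and 21 of the 43 cells held fewer than 10. The log2 ratio of mean CPM was -0.80, short of 2-fold, and it was -0.27 without REG cell 22, the cell at 110 CPM. Batch 1 gave 0.15 and batch 2 gave -1.31, which became 1.03 without REG cell 22. The ratio of the medians was -0.07, so much, though not all, of the lower mean in HFD cells rested on that 1 cell.

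The medians of *Bdnf* lay further apart between batches than between diets. In batch 1 it ran from 4.51 through a median of 12.5 to 26.8 CPM, and in batch 2 from 0.465 through a median of 3.56 to 13.5 CPM, with REG cell 22 apart at 110 CPM. The order held within each diet: medians were 12.3 and 2.70 CPM in REG cells, and 19.7 and 4.79 CPM in HFD cells, for batch 1 and batch 2. Within each batch the HFD median was thus the higher, whereas over all cells it was slightly the lower, with 13 of the 23 REG but 5 of the 20 HFD cells in batch 1. Such a gap was common, however, as 35.3% of the filtered genes with a median above 0 in batch 1 had a median in batch 2 below 1 in 2 of it, *Bdnf* alone among the 4 members compared. Across the 43 cells, *Bdnf* CPM went with a lower total count (Spearman −0.42), a description in which the CPM itself holds the total.

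**Figure D4:**
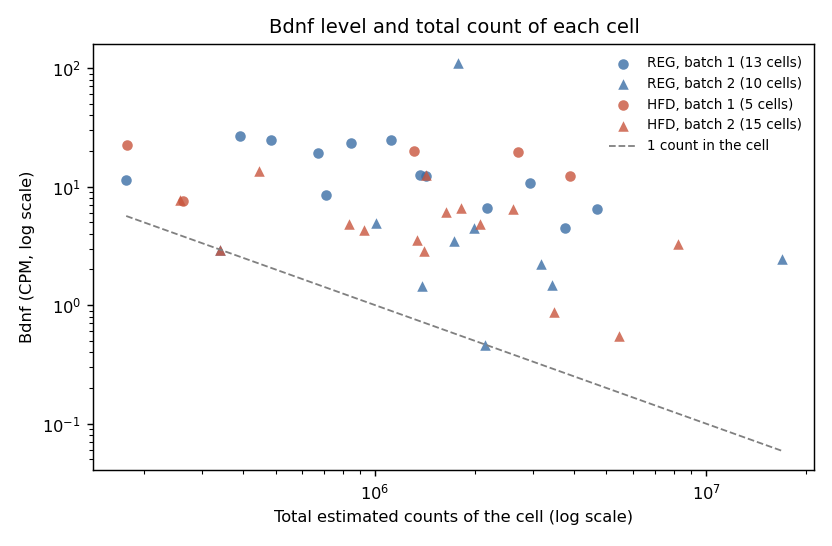
*Bdnf* CPM (y axis, log scale) against the total estimated count of each cell (x axis, log scale), by diet (colour) and batch (shape), with a dashed line at the CPM of 1 count. Batch 1 cells lie between 4.51 and 26.8 CPM and most batch 2 cells below them, except REG cell 22 at 110 CPM.

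REG cell 22 differed in other members too. It held 79.8 CPM of *Gdnf*, the second highest level, and 17.9 CPM of *Ntrk2*, close to the lowest REG value of 17.7 CPM. Its *Drd1* level was 44.97 CPM, against a REG median of 201 CPM, and its summed endothelial markers 853 CPM, against a REG median of 259 CPM. Glutamatergic neuron markers summed to 38.98 CPM, against a REG median of 4.51 CPM, and cholinergic interneuron markers to 36.0 CPM, against a median of 0. Higher sums occurred in cells with less *Bdnf*. The highest glutamatergic sum, 66.9 CPM in HFD cell 19, went with 0.549 CPM of *Bdnf*. The highest cholinergic sum, 131 CPM in REG cell 10, went with 26.8 CPM. An endothelial sum of 2309 CPM in REG cell 15, the highest of REG cells, went with 2.93 CPM. The part of these transcripts in the *Bdnf* level of REG cell 22 was not tested.

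The genes whose CPM ranked most like *Bdnf* over the 43 cells were *Olfr1406* (Spearman 0.82), *Hoxb1* (0.80) and *Gm43941* (0.79). *Olfr1406* is an odorant receptor gene and *Hoxb1* a hindbrain patterning gene, neither known from accumbens neurons, yet *Hoxb1* had counts in all 43 cells at a median of 27.9 CPM. The tables do not show where in a gene its reads lie, so whether the counts of these genes, and the low *Bdnf* counts that rank with them, come from spliced messages was not tested. These correlations share the totals and batches of the cells. Within batches, on log2(CPM + 1), Pearson's r of *Bdnf* with *Hoxb1* was 0.65 in batch 1 and 0.48 in batch 2. A noncoding antisense gene, *Gm45346*, overlaps *Bdnf* exons, and *Gm16277* overlaps those of *Gfra1*. The library kit does not mark strand, so reads of these pairs cannot be told apart.

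*Ntf3*, which encodes NT-3, was nearly absent. It had counts in 3 HFD cells, at 7.54, 1.11 and 0.749 CPM, and in no REG cell. The 3 cells held 11 counts in all, so the 0 in REG cells, which allows a share of up to 13.04% by a limit of 3 cells and 14.8% by the exact interval, leaves a difference not detectable at this depth. Its receptor gene *Ntrk3* was counted in all 3 of these cells, as in every other cell.

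*Ntrk2*, the TrkB gene, was counted in every cell, with a longer lower tail in HFD cells. REG cells ran from 17.7 through a median of 116 to 391 CPM, and HFD cells from 2.25 through a median of 102 to 403 CPM. The log2 ratio of mean CPM was -0.08, with 0.32 in batch 1 and -0.13 in batch 2. It was -0.84 from summed counts over summed totals, a sum that the deepest library weighs on. REG cell 14 alone held 6306 of the 11808 REG counts of *Ntrk2* and 16919600 of the 54601500 total counts. The difference of mean log2(CPM + 1) was -0.49. All 23 REG cells but 15 of 20 HFD cells exceeded 15 CPM. The 5 HFD cells below it held 2.25, 7.11, 7.19, 11.2 and 12.9 CPM, with 1 of them in batch 1 and 4 in batch 2. Of these 5, HFD cells 8, 17, 11 and 13 also stood low for the 7 medium spiny neuron markers. They held 422, 1383, 1413 and 1515 CPM of these, against an HFD median of 2881 CPM. HFD cell 1 held 4020 CPM but only 2 *Ntrk2* counts. HFD cells 7, 15 and 14 stood as low for the markers, at 356, 1206 and 1487 CPM. Their *Ntrk2* levels were 73.6, 133 and 80.5 CPM. HFD cell 2, at 1728 CPM of the markers, held the highest *Ntrk2* level, 403 CPM. The part of a low marker level in the *Ntrk2* level of the 5 cells was not tested. This cut was chosen after the values were seen. Of the 350 filtered genes above 15 CPM in every REG cell, 2.57% were above it in 15 or fewer HFD cells. *Ntrk3* could not be counted there, since 1 REG cell held 8.22 CPM.

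*Ntrk3*, the TrkC gene, ran from 8.22 through a median of 168 to 707 CPM in REG cells and from 1.10 through a median of 185 to 538 CPM in HFD cells. The groups overlapped over nearly their whole ranges. Its log2 ratio was -0.19, with 0.19 in batch 1 and -0.04 in batch 2, and the median was 0.14 higher in HFD cells on the log2 scale. The cell at 1.10 CPM was HFD cell 19.

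The receptor counts can be read for transcript length, because a count divided by the TPM of the same gene and cell is proportional to the mean effective length of the transcripts it was assigned to. The scale was set in each cell by genes with 1 annotated transcript, of which 98.7% of values fell within 5% of the annotated length less a fragment term. *Gdnf*, with 1 transcript of 3674 bases, gave 3670 to 3678 bases in its 5 cells with at least 50 counts. *Gfra1* gave 4412 to 4659 bases in 7 of its 9 cells, near its 2 longest transcripts of 4641 and 4415 bases, and 3228 bases in REG cell 4 and 2756 bases in HFD cell 17.

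The Trk genes varied far more. *Ntrk2* gave 2468 to 8339 bases over 29 cells, with a median of 4536 bases in 16 REG cells and 4613 bases in 13 HFD cells. Its full-length transcripts have 8744 and 4706 bases and the truncated Ntrk2-202 has 6846, while another truncated form has 3049. In 12 of the 29 cells, 6 of each diet, the mean length lay over 5% below the shorter full-length transcript, so some counts there were assigned to transcripts shorter than either full-length form. In the other cells a mean length does not tell the forms apart. *Ntrk3* gave a median of 3738 bases in 19 REG cells and 3832 bases in 15 HFD cells. The truncated Ntrk3-202 has 3977 bases. Ntrk3-206 and Ntrk3-205, of 2774 and 2678 bases, encode 864 and 839 residues, more than Ntrk3-201. A mean length in this range therefore does not tell full-length from truncated forms. The implied *Ntrk3* length reached 16031 and 17918 bases in HFD cells 13 and 11. This is near Ntrk3-201 with 19703 bases and above every other annotated *Ntrk3* transcript, of which the next has 4386. It was 506 and 602 bases in REG cells 6 and 18, a length that only annotated transcripts under 1000 bases come near. Those 2 cells had *Ntrk3* levels of 336 and 453 TPM but 51.9 and 92.2 CPM. On TPM the log2 ratio of *Ntrk3* was -0.56, and without them it was -0.23, closer to the CPM value.

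**Figure D5:**
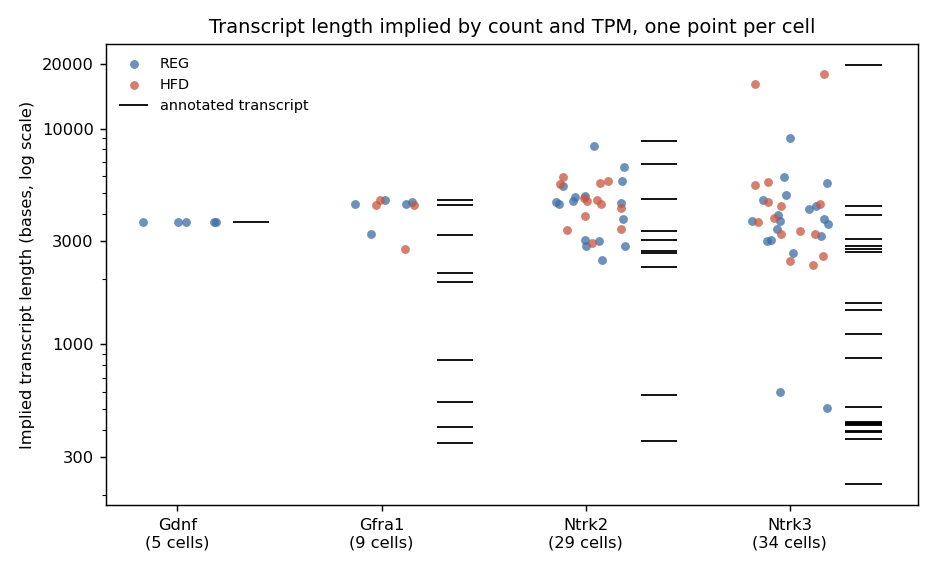
Transcript length implied by count and TPM in bases (y axis, log scale), one point per cell with at least 50 counts, for 4 genes (x axis), coloured by diet, with black ticks at the annotated transcript lengths. *Gdnf* sits at 3674 bases in its 5 cells, whereas *Ntrk3* spreads from 506 to 17918 bases.

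*Ngfr*, the p75 gene, stayed at trace level. It had counts in 14 of 23 REG cells, up to 6.97 CPM, and in 11 of 20 HFD cells, up to 4.99 CPM, and only 3 cells held 10 or more counts. Its log2 ratio was -0.45, and no direction is read from counts this low.

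For the members with counts in at least 22 cells, the genes of most similar rank over the 43 cells were listed by the same rule. Those of *Gfra1* were *Bysl* (0.57), *Sulf1* (0.55) and *Tnks1bp1* (0.54), and those of *Ntrk2* were *Rnf157* (0.65), *Psmg2* (0.64) and *Atp11a* (0.63). Those of *Ntrk3* were *Olfr1307* (0.68), *Zfp661* (0.64) and *Vmn2r79* (0.64), of which *Olfr1307* and *Vmn2r79* are odorant and vomeronasal receptor genes, with the same limit on what their counts and those of *Ntrk3* come from as for *Bdnf*. Those of *Ngfr* were *Cfap45* (0.69), *Gm48418* (0.68) and *Eed* (0.66). Each is the highest of 10802 genes in cells that share batch and depth, and carries no test.

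Other ligands of the families were counted in few cells. *Nrtn*, for neurturin, had counts in 6 cells, up to 79.5 CPM. *Gdf15* had counts in 4 cells, up to 678 CPM in HFD cell 7, and *Artn* in 2, up to 94.6 CPM. *Ntf5* had counts in 1 cell and *Pspn* in none, and none of these passed the filter. Of the other binding receptors, *Gfra3* had no count, and *Gfral*, for the GDF15 receptor, had counts in 1 cell. *Gfra4*, the co-receptor for persephin, was the exception. It had counts in 18 REG and 17 HFD cells at means of 79.0 and 75.8 CPM, a log2 ratio of -0.06, although its ligand *Pspn* had none.

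Among the co-receptors, *Ncam1*, an adhesion molecule that also binds GDNF with GFRα1, had a log2 ratio of 0.14, and *Sort1*, the sortilin that binds pro-neurotrophins with p75, one of 0.56. The *Sort1* ratio was -0.65 in batch 1, 0.94 in batch 2 and -0.25 without HFD cell 13, which held 45.6% of the summed HFD level. *Slitrk5*, which associates with TrkB, had -0.64, with -1.08 in batch 1 and 0.53 in batch 2. *Sorcs2*, which associates with p75, had -0.79, and -3.77 without HFD cell 20, which held 87.9% of the HFD level. No direction is read from these 3 genes. *Sdc3*, a proteoglycan that can bind GDNF, had a ratio of -1.10 (21.2 against 9.89 CPM), the only one of the 6 filtered co-receptors past 2-fold, beside 14.3% of all filtered genes below -1. It was short of 2-fold in batch 2, at -0.79, and -2.23 without HFD cell 18, which held 56.5% of the HFD level.

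Over 7 lists of 66 genes of these pathways, 47 passed the filter, of which 3 had a log2 ratio below -1 and 3 above 1, beside 14.3% and 9.04% of all filtered genes, with a median of -0.16 beside -0.13 over all filtered genes. The 10 genes of the Ras and MAP kinase cascade included none past 2-fold, with a median of -0.20, and neither did the 4 receptor turnover genes, with a median of -0.40. The 17 filtered adaptors had a median of 0.23, and the Dok family, adaptors of Ret and other kinases, differed in direction: *Dok4* had 1.58 and *Dok5* 1.27, and *Dok6* had -1.32. In batch 2 alone these were 0.07, 0.53 and -0.63, all short of 2-fold. *Rhoa*, a GTPase that p75 can regulate, had counts in all 43 cells and a ratio of 1.60 (31.3 against 94.7 CPM), with 1.98 in batch 1 and 1.28 in batch 2, and no single cell left out took it below 1.40. *Pcsk7*, a proprotein convertase, had -1.15, but 0.37 in batch 1 and -2.67 in batch 2.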

How the data were processed

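Cells were grouped by the diet and batch labels. The authors pseudo-aligned reads of SMART-Seq libraries to the GRCm38 transcriptome with kallisto and left out poor cells. They deposited estimated counts summed to gene symbols without normalization, and the deposited TPM are scaled within each cell. CPM was the estimated count over the total of the cell times 1000000. The log2 ratio divides mean CPM of HFD by REG cells; a group at 0 was set to 3 counts, over summed totals. Precision was limited by totals of 176961 to 16919600 counts. The members, the pathway lists and the genes to be named (members, list genes past 2-fold whose sign survived both batches and the loss of any cell, ligands and receptors, and the 3 genes most like each member) were chosen with earlier results of these data known. Some genes of the lists are not reported here. No test was made, since the mouse of each cell is not given. The ratio code was tested on simulated data. Alternatives covered unit, scaling, filter, summary, batch, depth and cells, and those of *Ntrk3* without 2 cells and *Bdnf* in batch 2 without 1 were chosen after seeing the data. Implied lengths used GENCODE M21 (GRCm38), a fragment term of 320 bases and genes of over 1500 bases. Python 3.11.15, pandas 2.3.3, scipy 1.17.1, R 4.3.3, edgeR 4.0.16 and DESeq2 1.42.0 were used; edgeR and DESeq2 served for scaling factors only.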

Additional observations from a re-analysis of the deposited data

Results flagged for a closer look

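In 15 groups of 4 to 10 cells with at least 1 count of a member, the highest or lowest value was set against the others, and 4 stood apart. Chance flags about 1 in 20 groups, but this rate does not hold where most cells are at 0. That is so for the *Gfra1*, *Gfra2* and *Ntf3* groups below, so 4 of 15 is not read as an excess. *Bdnf* was 109.6 CPM in REG cell 22, against at most 4.98 CPM in the other 9 REG cells of batch 2. Without it the ratio between diets went from -0.80 to -0.27. *Gfra1* was 57.5 CPM in HFD cell 5, against at most 5.20 CPM in the other 4 HFD cells of batch 1. In the same 5 cells, *Gfra2* was 1.18 CPM in HFD cell 3 and *Ntf3* 1.11 CPM in HFD cell 4, each the only cell with a count. With all other cells at 0, any count would have been flagged.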

How the results depend on the processing

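The lower *Gfra1* level of HFD cells kept its sign under every alternative that gave a value, but not its 2-fold limit; the sign of *Gdnf* was fixed by the HFD cells at 0. The main count of 2 members past 2-fold became 1 on TPM, with TMM-scaled totals, with DESeq2 size factors, with totals without *Lars2* and *Gm19220*, with the difference of mean log2(CPM + 1) and with a filter of 10 cells, which drops *Gdnf*; in the others *Gfra1* fell short, and on TPM *Gdnf*, listed at 0 in HFD cells, was counted by its bound in counts. It became 0 with medians over cells 4 with no filter and 3 in batch 2 alone, where *Bdnf* joined, and 1 to 2 when each cell was dropped in turn. The *Gdnf* bound of -7.45 was -7.21 with TMM-scaled totals, -7.24 with DESeq2 size factors, -5.80 in batch 1, -6.52 in batch 2, -6.16 as the mean of both, -3.91 after thinning each cell to 150000 counts, -7.21 without 6 cells rich in microglial markers, -1.53 as a difference of mean log2(CPM + 1), and from -7.98 to -6.69 when each cell was dropped in turn. TPM and medians gave no *Gdnf* ratio. The 5 members counted in over 1 in 2 of the cells became 2 above 15 CPM, 3 at 10 or more counts and 3 after thinning and stayed at 5 with any 1 cell left out. TMM and DESeq2 scaling raised the median of all filtered genes by 0.14 and 0.15. *Ntrk2* and *Ntrk3* changed sign under 2 of 12 and 3 of 13 alternatives other than leaving out 1 cell. No paired analysis was possible because nothing in the labels pairs cells or mice across diets. Depth limits several members: after thinning, *Ngfr* kept counts in 8 of 25 cells, *Gfra2* in 6 of 17 and *Ret* in 5 of 9. *Ntf3* kept them in 1 of 3 cells and *Bdnf* in 29 of 43.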
